A study of Mus musculus with 23 samples.

Results

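The genes described here are 30 markers of macrophages and dendritic cells, followed in whole jejunum of mast cell-deficient mice and their wild-type controls. They were taken by symbol from the 55487 genes of the count table, and all 30 were found and passed the filter on low counts. By role they fell into 14 macrophage genes, 7 dendritic cell genes and 9 genes shared by macrophages, dendritic cells and other myeloid cells. RNA was sequenced from whole jejunum after fat and Peyer's patches had been taken off, in 23 libraries of 10 groups.

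The Cpa3Cre/+ mice carry the Cre recombinase in 1 copy of Cpa3, the mast cell carboxypeptidase gene, and lack mast cells, while the Cpa3+/+ mice are wild type. Naive mice were untreated and gave 2 Cpa3Cre/+ libraries and 3 Cpa3+/+ libraries. Immunized mice received 25 µg ovalbumin with 2 mg alum into the peritoneum on days 0 and 14, and gave 2 Cpa3Cre/+ and 2 Cpa3+/+ libraries. Challenged mice were immunized in the same way and from day 20 were offered, beside plain water, a drink of 20% egg white and 8% sugar. After 1 day of challenge there were 2 Cpa3Cre/+ and 3 Cpa3+/+ libraries, after 3 days 2 and 2, and after 5 days 3 and 2. All Cpa3+/+ libraries were female except naive replicate 3, and each Cpa3Cre/+ group other than day 5 had 1 male library.

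Macrophages of the gut wall engulf dead cells and microbes beneath the epithelium, and many are replaced throughout life by monocytes from blood. They depend on the growth factor receptor Csf1r, and they secrete C1q, the first component of the classical complement cascade, which is built from the products of C1qa, C1qb and C1qc. Dendritic cells depend on the receptor Flt3, carry antigen to lymph nodes and prime T cells, and one subset with Xcr1, Clec9a and the factor Batf3 specialises in antigen from dead cells.

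Total counts ran from 5.48 to 19.34 M (mega) reads per library with a median of 13.81 M. Cpa3 was lower in the Cpa3Cre/+ libraries, with a fitted log2 fold change of -3.05 ± 0.40 (SE) over the 5 states (adjusted p = 0.0102 by edgeR's quasi-likelihood test). It reached 1.51 CPM (counts scaled to a common library total) at most in the 11 Cpa3Cre/+ libraries, and ran from 0.827 to 22.1 CPM in the 12 Cpa3+/+ libraries. Its 1.07 CPM in the library labelled Cpa3Cre/+ naive replicate 1 lay within the 0.827 to 1.84 CPM of naive Cpa3+/+ mice, so Cpa3 does not check that label, and directions drawn from it are given without it too. The 8 enterocyte markers that define jejunal epithelium were detected in every library and summed to between 7403 and 85560 CPM. Libraries stood apart on the principal components in 3 cases, the library labelled Cpa3Cre/+ naive replicate 1, Cpa3Cre/+ day 5 replicate 3 and Cpa3+/+ day 1 replicate 2, and the class medians and the values of Cd14, Zbtb46, Aif1 and Csf1r that 1 of them moves are also given without it. Transcripts of B cells and follicles, 11 markers in all, summed to 131 CPM in Cpa3Cre/+ immunized replicate 2, 81.0 CPM in Cpa3Cre/+ day 1 replicate 2 and 157 CPM in Cpa3+/+ immunized replicate 1, above the other 20 libraries, which held 9.68 to 47.8 CPM.

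Levels per length (RPKM, the CPM divided by the exon length in kilobases) placed the complement genes at the head of the macrophage genes. C1qa had a median of 58.8 RPKM over the 23 libraries, C1qb 35.5 RPKM and C1qc 21.3 RPKM. Csf1r, the receptor for the growth factors Csf1 and Il34, followed at 10.2 RPKM, and Cd68, a glycoprotein of lysosomes, at 7.52 RPKM. The scavenger receptor gene Cd163 was lowest of the 14 at 0.454 RPKM, next to Siglec1, the sialic acid receptor sialoadhesin, at 0.754 RPKM. The dendritic cell genes lay between 0.276 RPKM for the transcription factor gene Zbtb46 and 1.67 RPKM for the lectin gene Cd209a, a range that also holds 5 of the macrophage genes. Among the shared genes, Ctss, which encodes the protease cathepsin S, had the highest median of all 30 members at 152.5 RPKM, and Lyz2, the lysozyme of phagocytes, came second at 78.2 RPKM. Within a class many neighbours in this order did not differ beyond the spread over libraries: the ranges of C1qa, 20.9 to 136 RPKM, and C1qb, 12.4 to 72.5 RPKM, overlapped over most of their length.

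**Figure D1:**
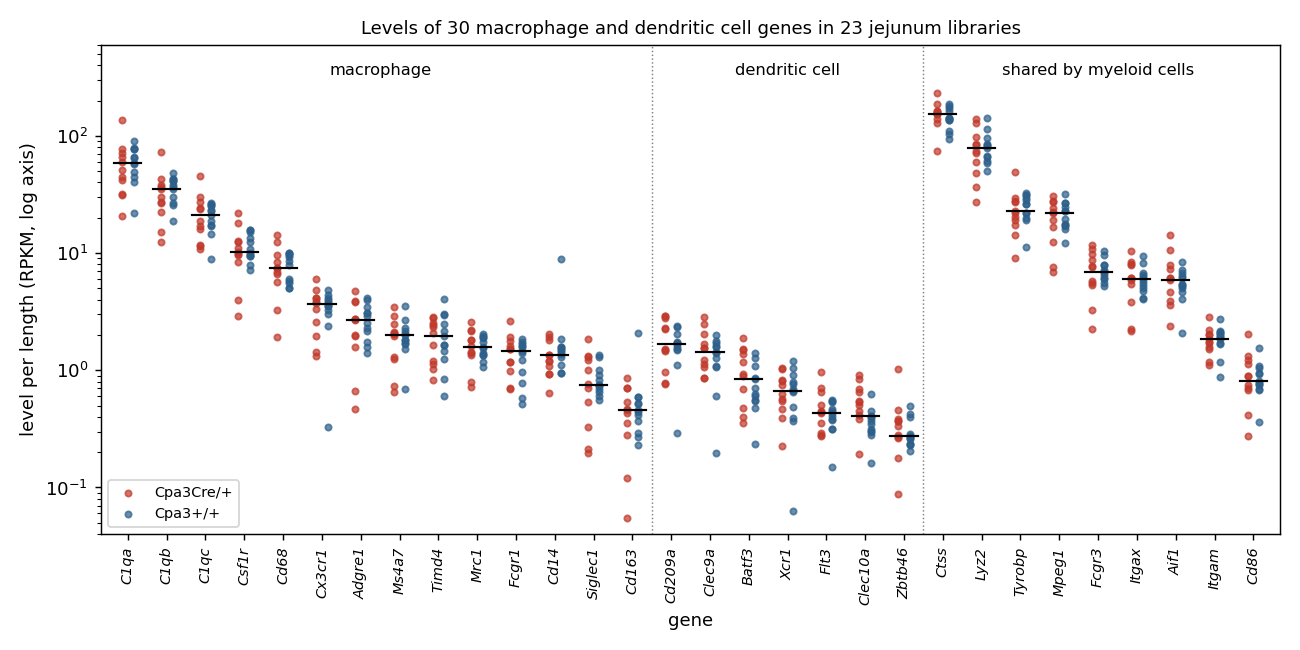
Level per length of each of the 30 genes (RPKM on a log axis), with a point for each of the 11 Cpa3Cre/+ libraries (red, left) and 12 Cpa3+/+ libraries (blue, right) and a black bar for the median of all 23. The 3 C1q genes head the macrophage genes, no dendritic cell gene has a median above 1.67 RPKM, and the points of both genotypes cover each other for nearly all genes.

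The 3 C1q genes lie side by side on chromosome 4 of GRCm38, all on the minus strand: C1qb at 136880129 to 136886187, C1qc at 136889804 to 136893065 and C1qa at 136895917 to 136898803. They kept close to each other from library to library, since the C1qb level was 0.496 to 0.894 of the C1qa level in CPM and the C1qc level 0.553 to 0.958 of it. Bases before the RefSeq starts of C1qb and C1qc are printed below because these genes kept a narrow ratio across the libraries, with those of Lyz2, its neighbour Lyz1 and the dendritic cell gene Clec9a for comparison. Sequences are from RefSeq on GRCm38.p6, and C1qa is named only. A window is the 250 bases before the RefSeq start, and the C1qc and Lyz2 starts lie inside the gene spans used for counting here, so the 151 and 49 bases of their windows within those spans are not printed. Capitals mark the letters AGGAAGT or, on the other strand, ACTTCCT, letters that hold the core bound by factors of the ETS family such as PU.1, the product of Spi1.
C1qb, chr4:136886201-136886450, minus strand: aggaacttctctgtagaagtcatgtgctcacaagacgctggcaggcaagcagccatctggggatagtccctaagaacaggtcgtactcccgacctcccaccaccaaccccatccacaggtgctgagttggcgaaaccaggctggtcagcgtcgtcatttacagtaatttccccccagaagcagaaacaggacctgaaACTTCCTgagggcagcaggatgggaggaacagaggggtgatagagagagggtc
C1qc, chr4:136893066-136893164, minus strand: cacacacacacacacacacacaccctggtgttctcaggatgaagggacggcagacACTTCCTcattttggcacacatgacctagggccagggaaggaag
Lyz2, chr10:117282322-117282522, minus strand: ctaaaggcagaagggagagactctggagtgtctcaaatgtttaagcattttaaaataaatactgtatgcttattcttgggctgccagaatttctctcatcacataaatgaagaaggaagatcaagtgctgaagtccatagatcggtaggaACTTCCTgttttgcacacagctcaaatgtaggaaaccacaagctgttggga
Lyz1, chr10:117292869-117293118, minus strand: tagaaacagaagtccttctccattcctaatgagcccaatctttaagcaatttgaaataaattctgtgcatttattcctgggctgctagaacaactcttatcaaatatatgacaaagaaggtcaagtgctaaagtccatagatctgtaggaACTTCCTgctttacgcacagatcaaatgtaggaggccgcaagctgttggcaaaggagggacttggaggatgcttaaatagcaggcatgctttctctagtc
Clec9a, chr6:129408612-129408861, plus strand: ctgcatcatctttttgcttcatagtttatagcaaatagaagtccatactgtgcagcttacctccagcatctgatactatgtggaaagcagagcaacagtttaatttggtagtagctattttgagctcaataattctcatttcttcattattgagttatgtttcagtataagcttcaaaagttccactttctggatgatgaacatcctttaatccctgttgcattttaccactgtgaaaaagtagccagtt

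These letters stood once in each of the C1qb, C1qc, Lyz2 and Lyz1 windows and were not found in the Clec9a window. Of the 22 members with a RefSeq window, 5 held them (22.7%): Mrc1, C1qb, C1qc, Fcgr1 and Lyz2. Over all 32851 windows of the same length, 2525 held them (7.69%). The first share counts genes and the second counts windows, of which Ms4a7 and Fcgr3 had 2 each, so the shares are not fully alike. A match is a description of the letters and not evidence of a bound site. The Lyz2 and Lyz1 windows were alike in 205 of 260 aligned positions, 78.8%, against 46.6% for C1qb and C1qc.

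The 2 lysozyme genes also share stretches of their transcripts. Lyz1 is the lysozyme of Paneth cells and ran from 1927 to 12320 CPM, while Lyz2 ran from 36.1 to 188 CPM. Of the 50-base stretches of the Lyz2 exons, 15.4% also occur in Lyz1, so reads there cannot be assigned to either gene. The same share was 66.3% for Itgam (CD11b, the alpha chain of complement receptor 3), whose exons overlap Gm49368 on the same strand. For Fcgr3, a low-affinity receptor for IgG, it was 9.58%, with Fcgr2b. For Csf1r it was 14.3%, with the antisense gene Hmgxb3. That share matters only if reads were counted without regard to strand, a setting not given in the sources used here. The share was 9.02% for Clec10a over 49 genes, 8.02% for Itgax with Itgad and 4.02% for Clec9a with Clec1b. Members with 0% included C1qa, C1qb, C1qc, Cd68, Adgre1, Mrc1, Cd14 and Tyrobp.

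Libraries differed widely in these genes. Ctss varied least, 3.16-fold between its lowest and highest library, and Cd163 most, 37.7-fold. In Cpa3Cre/+ day 1 replicate 2 all 30 members lay above their median over the libraries, and 16 had their highest level there. In Cpa3Cre/+ naive replicate 2 only 2 members lay above their median and 13 had their lowest level, and in Cpa3Cre/+ day 5 replicate 3 only 1 lay above.

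The exception in that last library was Ctss, at 316.7 CPM its highest level. Ctss also parted from most members in the library labelled Cpa3Cre/+ naive replicate 1. It was lowest there, at 100.4 CPM, where 27 of the 30 members lay above their median. This was not particular to Ctss over all libraries. Its log2 ratio to Csf1r had an SD of 0.779, while Cd14, Batf3 and Xcr1 had 0.854, 0.842 and 0.834 and most other members less. The summed level of the 8 enterocyte markers was likewise lowest in that library, at 7403 CPM, and highest in Cpa3Cre/+ day 5 replicate 3, at 85560 CPM. The smooth muscle markers ran the other way at 1 end only, with a highest sum of 6197 CPM in the library labelled Cpa3Cre/+ naive replicate 1. Their median over libraries was 1454 CPM, and their lowest sum, 655 CPM, lay in Cpa3Cre/+ immunized replicate 2. The part of tissue composition in these levels was not tested, and in whole tissue fewer cells of a type and less RNA per cell cannot be told apart.

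**Figure D2:**
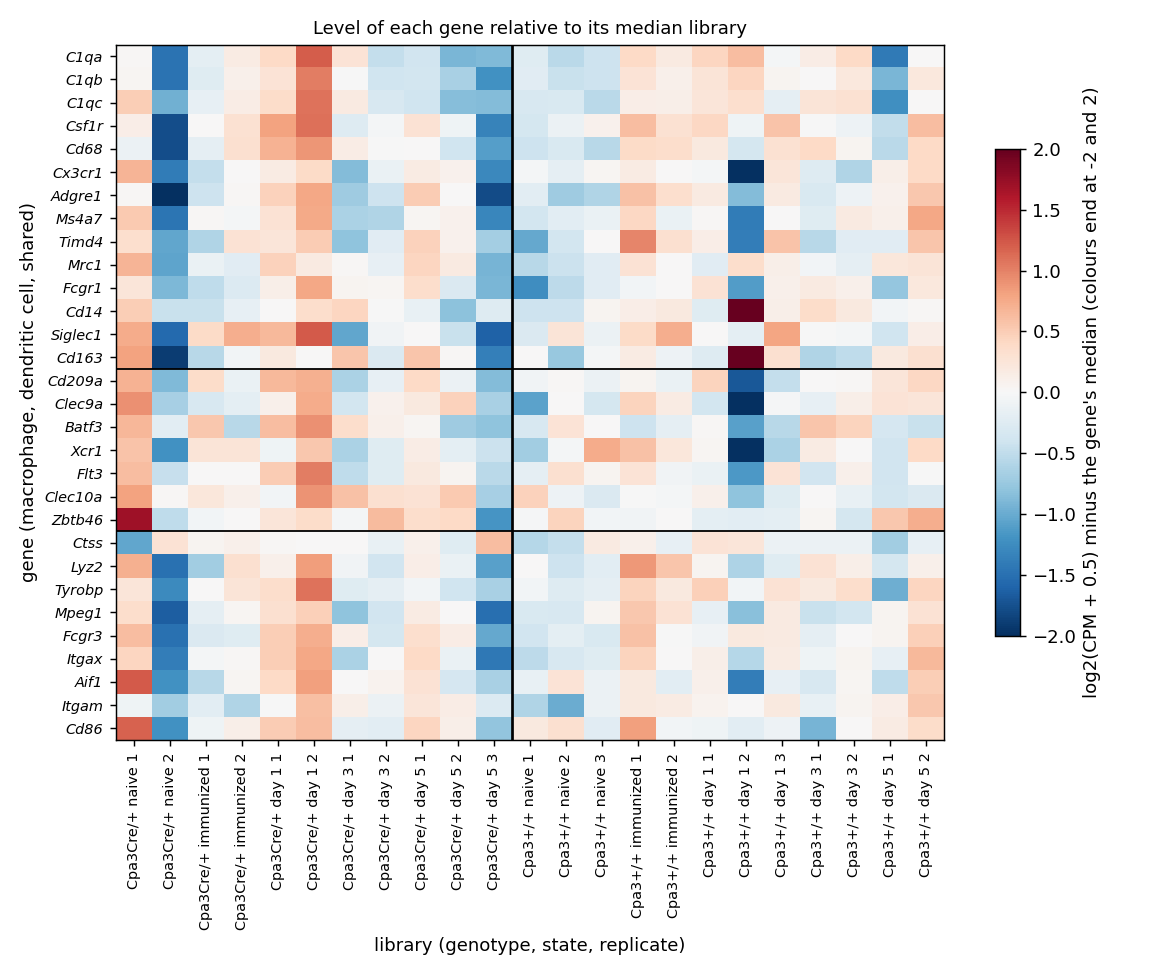
Level of each gene (rows) in each of the 23 libraries (columns), as log2(CPM + 0.5) minus the gene's median over libraries, with the Cpa3Cre/+ libraries left of the black line. Cpa3Cre/+ day 1 replicate 2 is above the median in all 30 rows, Cpa3Cre/+ naive replicate 2 and day 5 replicate 3 are below it in nearly all, and Cpa3+/+ day 1 replicate 2 mixes high Cd14 and Cd163 with low dendritic cell genes.

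In Cpa3+/+ day 1 replicate 2 the sums of the 2 classes parted. Its macrophage genes summed to 317 CPM, inside the range of the other day 1 libraries of that genotype, 329 and 311 CPM. Its dendritic cell genes summed to 5.12 CPM, the lowest of all libraries, against 17.5 and 15.2 CPM in the other Cpa3+/+ day 1 libraries. The ratio of both sums was 61.9 there and 8.88 to 20.5 in the other 22 libraries. Gene by gene, 6 of the 14 macrophage genes and 0 of the 7 dendritic cell genes lay above their median over the libraries. The macrophage gene Timd4 had its lowest level of all libraries there, 1.305 CPM. Clec9a, the receptor by which dendritic cells sense dead cells, stood at 0.652 CPM and the chemokine receptor gene Xcr1 at 0.280 CPM, from 7 and 3 reads. Cx3cr1, the fractalkine receptor of gut macrophages, was also at its lowest, 1.49 CPM against 5.94 to 26.8 CPM elsewhere. Cd14, a receptor for bacterial lipopolysaccharide, was at 15.3 CPM, while no other library passed 3.51 CPM. Cd163 was at 11.4 CPM and at most 4.68 CPM elsewhere.

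**Figure D3:**
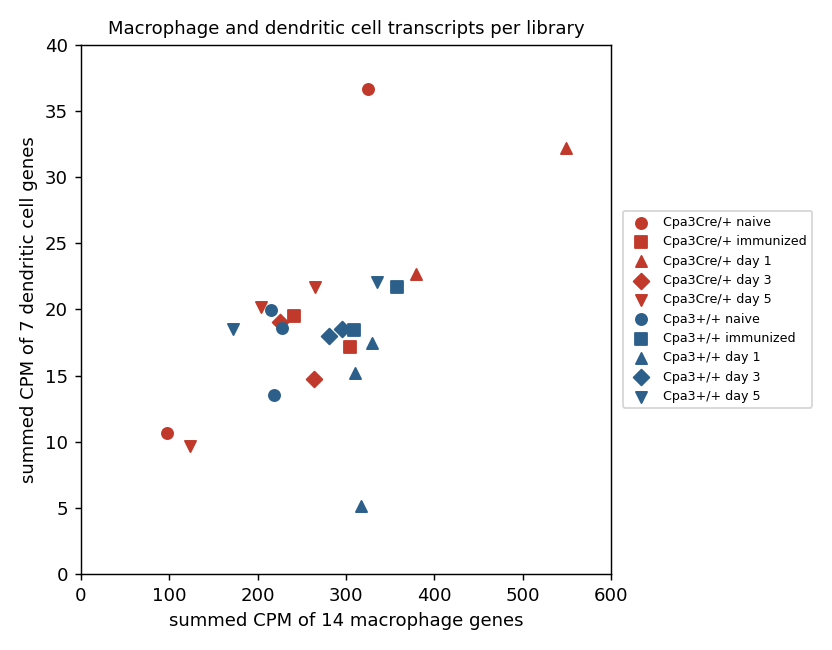
Summed CPM of the 14 macrophage genes (x axis) and of the 7 dendritic cell genes (y axis) in each library, by genotype (colour) and state (marker). The macrophage sums run from 97.3 CPM in Cpa3Cre/+ naive replicate 2 to 549 CPM in Cpa3Cre/+ day 1 replicate 2, and Cpa3+/+ day 1 replicate 2 lies alone at 5.12 CPM of dendritic cell transcripts.

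The genotypes were compared first with all 5 states averaged. No macrophage or dendritic cell gene passed the test between Cpa3Cre/+ and Cpa3+/+ jejunum: 0 of 30 passed an adjusted p of 0.05 in edgeR's quasi-likelihood test, against 0.029% of the 17236 genes tested, and DESeq2 called 0 as well. At an unadjusted p under 0.05 there was 1 member, where 1.12% of all genes lay. The median log2 fold change was 0.02 over the macrophage genes, 0.23 over the dendritic cell genes, 0.00 over the shared genes and 0.03 over all genes tested. Without the library labelled Cpa3Cre/+ naive replicate 1 the macrophage median was -0.39 and the dendritic cell median -0.11, so both signs rested on that library.

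The member below that level was Clec10a, with a log2 fold change of 0.70 ± 0.28 (SE, adjusted p = 1 in edgeR). It encodes a galactose-binding lectin of dendritic cells and macrophages, and was counted here among the dendritic cell genes. Its median level was 1.18 CPM, and its lowest, 0.466 CPM from 5 reads, lay in Cpa3+/+ day 1 replicate 2. Batf3 followed with 0.41 ± 0.28, and Aif1, which encodes the calcium-binding protein Iba1, with 0.37 ± 0.27. On the other side were Cd14 with -0.35 ± 0.33, Itgam with -0.16 ± 0.15 and Mpeg1, the pore-forming protein of phagocytes, with -0.08 ± 0.23. Without the library labelled Cpa3Cre/+ naive replicate 1, where Aif1 had its highest level of 21.8 CPM, the Aif1 value turned to -0.09, the Clec10a and Batf3 values were 0.50 and 0.15, and those of Itgam and Mpeg1 were -0.34 and -0.48. The Cd14 value was -0.07 without Cpa3+/+ day 1 replicate 2.

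Taken state by state, day 1 of challenge had the most members at an unadjusted p under 0.05, although no member passed in edgeR's test in any of the 5 states and DESeq2 also called 0. The share of all genes called by edgeR was 0% in every one of the 5 states. On day 1, 6 of the 30 members had an unadjusted p under 0.05, all with higher values in Cpa3Cre/+, against 3.65% of all genes in that direction and 7.39% in either. They were Batf3, Flt3, Cd68, C1qc, Lyz2 and Aif1, with log2 fold changes from 0.85 for C1qc to 1.61 for Batf3 and an adjusted p of 0.635 each. Batf3 was a low gene, with a median of 1.36 CPM over the libraries. Its lowest level, 0.373 CPM from 4 reads, lay in Cpa3+/+ day 1 replicate 2, without which its value was 1.29. The median was 0.74 over the macrophage genes and 1.18 over the dendritic cell genes, where all genes had 0.02, and 27 of the 30 members lay above 0, against 51.7% of all genes.

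C1qa stood at 81.0 and 142 CPM in the day 1 Cpa3Cre/+ libraries, against 82.4, 94.2 and 59.7 CPM in the Cpa3+/+ libraries of that day. C1qc stood at 53.1 and 87.7 CPM in Cpa3Cre/+ and 48.9, 52.1 and 36.4 CPM in Cpa3+/+. The C1qa values of the genotypes overlapped, and those of C1qc did not. Csf1r, too, did not overlap, with 103 and 127 CPM in Cpa3Cre/+ and 78.3, 55.1 and 87.1 CPM in Cpa3+/+. Flt3 had 4.03 and 5.95 CPM in Cpa3Cre/+ and 2.38, 0.932 and 3.35 CPM in Cpa3+/+. In all, 16 of the 30 members were higher in both Cpa3Cre/+ libraries than in all 3 Cpa3+/+ libraries, against 13.3% of all genes, and 0 were lower in this sense, against 9.56%.

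These day 1 values leaned on single libraries at both ends. Without Cpa3+/+ day 1 replicate 2 the macrophage median was 0.63 and the dendritic cell median 0.79, and without Cpa3Cre/+ day 1 replicate 2 they were 0.30 and 0.74. They were 1.22 and 1.62 without Cpa3Cre/+ day 1 replicate 1. Cpa3Cre/+ day 1 replicate 2 was the only male of the 5 of day 1. It held 81.0 CPM of B cell and follicle markers, where the other 4 held 9.68 to 22.4 CPM. The 7 markers of mature migratory dendritic cells, such as Ccr7 and Ccl22, summed to 41.8 and 57.7 CPM in Cpa3Cre/+ and 33.4, 38.6 and 26.0 CPM in Cpa3+/+. Of the 19 lists of other genes, 8 had higher sums in both Cpa3Cre/+ than in all 3 Cpa3+/+ libraries of day 1, 3 had lower ones and 8 overlapped. Markers of tissue-resident macrophages overlapped, with 539 to 796 CPM in Cpa3Cre/+ and 469 to 777 CPM in Cpa3+/+. So did those of monocytes and the transcription factors of phagocytes. Markers of plasmacytoid and of the second conventional dendritic cells, and growth factors and chemokines of phagocytes, were among the higher ones. Such sums follow their most abundant genes and do not show the course of a cell type. Over all libraries Plac8 alone ran from 646 to 2535 CPM, where the monocyte sum ran from 676.5 to 2543 CPM. Klk1 had a median of 55.6 CPM against 123.7 CPM for the plasmacytoid sum, and Cx3cl1 81.4 CPM against 158.3 CPM for the growth factors and chemokines. The enterocyte markers summed to 42480 and 30680 CPM in Cpa3Cre/+ and 58020, 71910 and 50160 CPM in Cpa3+/+, and the markers of fat cells and of NK and innate lymphoid cells were lower as well. Among the higher sums, the 7 neutrophil markers held 17.8 and 30.9 CPM in Cpa3Cre/+ and 15.5, 12.3 and 11.9 CPM in Cpa3+/+, and the 7 eosinophil markers 20.4 and 30.9 CPM in Cpa3Cre/+ and 19.8, 6.62 and 16.5 CPM in Cpa3+/+. The 6 Paneth cell markers held 6050 and 8541 CPM in Cpa3Cre/+ and 4945, 2697 and 4842 CPM in Cpa3+/+. The fitted log2 fold changes come from a model with a term for sex, and the CPM values do not. The part of these transcripts in the day 1 values was not tested, nor was that of sex in the CPM values. Cd14 was the member with the lowest p in the other direction, with -1.17 ± 0.70, and turned to 0.37 without Cpa3+/+ day 1 replicate 2.

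**Figure D4:**
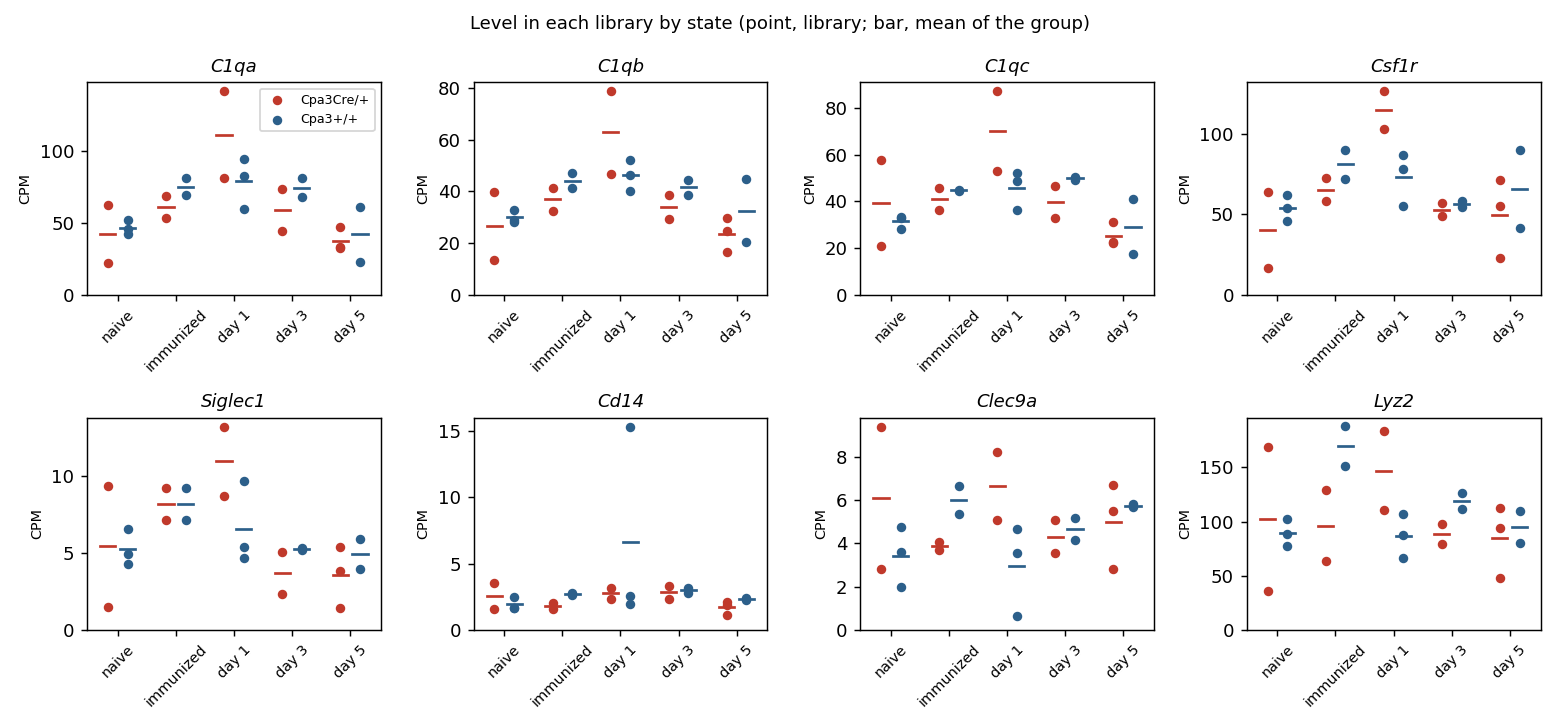
CPM of 8 genes in each library (points) with the mean of each group (bars) over the 5 states, Cpa3Cre/+ in red left of Cpa3+/+ in blue. The 3 C1q genes, Csf1r and Siglec1 are highest on average in Cpa3Cre/+ on day 1, and the single point of 15.3 CPM sets the Cpa3+/+ mean of Cd14 on that day.

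Among naive mice 0 members had an unadjusted p under 0.05, where 5.34% of all genes lay. None had groups that did not overlap, against 7.95% of all genes higher and 4.54% lower in Cpa3Cre/+. The smallest p in each direction belonged to Zbtb46 with 0.91 ± 0.56 and Csf1r with -0.45 ± 0.47. Both rested on 1 library, since Zbtb46 turned to -0.88 without the library labelled Cpa3Cre/+ naive replicate 1 and Csf1r to 0.21 without replicate 2, while Csf1r had -1.78 without replicate 1. Among immunized mice, too, 0 members had an unadjusted p under 0.05 (0.951% of all genes), while 12 members were lower in both Cpa3Cre/+ libraries than in both Cpa3+/+ libraries and 1 was higher, against 22.9% and 24.9% of all genes. The smallest p in each direction belonged to Itgam with -0.73 ± 0.35 and Batf3 with 0.50 ± 0.65. Timd4, a receptor for phosphatidylserine on long-lived macrophages, had 2.62 and 5.27 CPM in immunized Cpa3Cre/+ libraries and 8.84 and 5.43 CPM in immunized Cpa3+/+ libraries.

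On day 3, 0 members had an unadjusted p under 0.05 (1.55% of all genes), and the smallest p in each direction belonged to Cd163 with 1.23 ± 0.88 and Xcr1 with -0.73 ± 0.76. There 11 members were lower in both Cpa3Cre/+ libraries than in both Cpa3+/+ libraries and 2 higher, against 19.4% and 17.6% of all genes. On day 5 the count at an unadjusted p was again 0 (9.26% of all genes), with Ctss at 0.61 ± 0.32 and Ms4a7, a membrane protein of macrophages, at -0.77 ± 0.52. Cd14, Ms4a7 and Zbtb46 were lower in all 3 Cpa3Cre/+ libraries than in both Cpa3+/+ libraries, against 14.6% of all genes, and 0 members were higher, against 15.2%. Ms4a7 had 9.23, 9.53 and 3.29 CPM in day 5 Cpa3Cre/+ libraries and 9.58 and 15.6 CPM in day 5 Cpa3+/+ libraries.

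Immunization was compared next, with both genotypes averaged. No member passed between immunized and naive jejunum: 0 of 30 did in edgeR, as did 0% of all genes, and DESeq2 called 0 members. At an unadjusted p under 0.05 there was 1 member, against 10.9% of all genes. The macrophage genes had a median log2 fold change of 0.39, with 11 of 14 above 0, and the dendritic cell genes -0.10, with 3 of 7 above 0, where 46% of all genes tested lay above 0. Without the library labelled Cpa3Cre/+ naive replicate 1 these medians were 1.08 and 0.38, and without Cpa3Cre/+ naive replicate 2 they were 0.15 and -0.32. No member was higher or lower in all 4 immunized than in all 5 naive libraries, against 1.11% and 1.22% of all genes.

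Cd68 was the member past the unadjusted level, with 0.81 ± 0.30 (adjusted p = 0.389 in edgeR). It stood at 8.30 and 11.99 CPM in immunized Cpa3Cre/+ and 12.4 and 12.2 CPM in immunized Cpa3+/+ libraries, against 8.68 and 2.42 CPM in naive Cpa3Cre/+ and 6.94, 7.53 and 6.30 CPM in naive Cpa3+/+ libraries. C1qa had 0.58 ± 0.30 and Csf1r 0.63 ± 0.34. Csf1r stood at 58.7 and 72.5 CPM in immunized Cpa3Cre/+ and 90.5 and 72.3 CPM in immunized Cpa3+/+ libraries, against 64.3 and 16.8 CPM in naive Cpa3Cre/+ and 45.6, 54.0 and 62.2 CPM in naive Cpa3+/+ libraries. For both genes every immunized Cpa3+/+ library was above every naive one, while the naive Cpa3Cre/+ libraries were far apart. The members on the other side were Zbtb46 with -0.69 ± 0.42, Aif1 with -0.40 ± 0.40 and Batf3 with -0.35 ± 0.41. Without the library labelled Cpa3Cre/+ naive replicate 1 all 3 turned, to 0.24, 0.49 and 0.09, and Cd68, C1qa and Csf1r had 1.37, 1.06 and 1.35.

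These values depended on which libraries entered. Without the 3 libraries apart, 5 members passed as higher in immunized mice, where 43 of 17731 genes did: Adgre1 (F4/80, the surface protein that defines mouse macrophages) with a log2 fold change of 1.70, Cd68 with 1.38, Csf1r with 1.36, Mpeg1 with 1.203 and Itgax (CD11c) with 1.14, at adjusted p between 0.0139 and 0.0464 in edgeR. The naive Cpa3Cre/+ group was then the single male library in which 13 members had their lowest level. In Cpa3+/+ mice alone 0 members passed, 1 had an unadjusted p under 0.05 (1.69% of all genes), and that was Itgam at 0.85 ± 0.31 (adjusted p = 1 in edgeR, with 0% of all genes called). Itgam stood at 10.77 and 10.54 CPM in immunized Cpa3+/+ libraries and 5.95, 4.44 and 8.54 CPM in naive ones, and Batf3 was lowest with -0.43 ± 0.59. In Cpa3Cre/+ mice alone 0 members passed (0% of all genes) and 0 had an unadjusted p under 0.05 (13.1%), with Cd68 at 0.94 ± 0.45 and Zbtb46 at -1.05 ± 0.63. Cd68 had 1.97 without the library labelled Cpa3Cre/+ naive replicate 1 and 0.36 without replicate 2. Zbtb46 reached 8.78 CPM in the library labelled Cpa3Cre/+ naive replicate 1 and passed with -1.91 (adjusted p = 0.0424 in edgeR) when that library alone was kept in its group, a fit in which 2013 of 18182 genes passed, and had 0.67 when it was left out.

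Challenge was set against the immunized state on each day. No member passed on any of the 3 days in edgeR or in DESeq2, with genotypes averaged or within a genotype. On day 1 with genotypes averaged, where 0% of all genes passed, 0 members had an unadjusted p under 0.05 (3.16% of all genes). None was higher or lower in all 5 day 1 libraries than in all 4 immunized ones, against 0.975% and 0.708% of all genes. Cd14 had 0.94 ± 0.49, C1qa 0.50 ± 0.30 and C1qc 0.43 ± 0.26, against Xcr1 with -0.64 ± 0.48, Clec9a with -0.11 ± 0.43 and Lyz2 with -0.10 ± 0.33. The higher values moved with single libraries, since Cd14 had 0.17 without Cpa3+/+ day 1 replicate 2, and C1qa had 0.09 and C1qc 0.05 without Cpa3Cre/+ day 1 replicate 2. Without Cpa3Cre/+ day 1 replicate 1 the 2 C1q values were 0.80 and 0.72.

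Behind the day 1 average the genotypes had opposite medians. In Cpa3Cre/+ mice the median log2 fold change of day 1 over immunized was 0.66 over all members, with 28 of 30 above 0 against 51% of all genes. In Cpa3+/+ mice it was -0.30, with 6 of 30 above 0 against 51.1% of all genes, and all genes had a median of 0.01 in both. Neither comparison called a member, nor any of the other genes (0%). At an unadjusted p under 0.05 there were 3 members in Cpa3Cre/+, against 2.12% of all genes, and 1 in Cpa3+/+, against 5.37%. In Cpa3Cre/+ the smallest p was that of Itgam, at 0.75 ± 0.33, and in Cpa3+/+ that of Lyz2, at -0.97 ± 0.44. Ctss had -0.06 ± 0.34 in Cpa3Cre/+, the smallest p on that side, and Cd14 had 1.28 ± 0.66 in Cpa3+/+, which turned to -0.29 without Cpa3+/+ day 1 replicate 2. Both comparisons use the immunized libraries of their own genotype. Their medians and counts above 0 were not computed with single libraries left out. They include Cpa3+/+ day 1 replicate 2, where 9 members had their lowest level, and Cpa3Cre/+ day 1 replicate 2, where 16 had their highest.

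The difference between these responses was tested directly and passed for no member, by edgeR or DESeq2, on any day or over the 3 days jointly, as for 0% of all genes in edgeR. At an unadjusted p under 0.05 there was 1 member on day 1 (4.07% of all genes), and there were 0 on day 3 (1.42%), 0 on day 5 (1.28%) and 0 over the 3 days jointly (4.62%). On day 1 the median difference was 1.00 over the members, where all genes had -0.01, and it was not computed with single libraries left out. Lyz2 had the smallest p, with a difference of 1.73 ± 0.66 (adjusted p = 0.845 in edgeR). It stood at 110.5 and 184 CPM on day 1 and 63.3 and 129 CPM when immunized in Cpa3Cre/+, and at 107, 66.5 and 87.3 CPM on day 1 and 188 and 152 CPM when immunized in Cpa3+/+. The Cpa3+/+ libraries of both states did not overlap, and those of Cpa3Cre/+ did. Cd14 had -0.68 ± 0.97 on day 1, Itgam 0.67 ± 0.47 and Batf3 -0.87 ± 0.83 on day 3, and Ctss 0.68 ± 0.47 and Zbtb46 -0.90 ± 0.86 on day 5.

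On day 3 with genotypes averaged, 0% of all genes and 0 members passed, and 0 members had an unadjusted p under 0.05 (9.58% of all genes). The smallest p among lower values belonged to Siglec1 with -0.86 ± 0.45, Timd4 with -0.81 ± 0.46 and Mpeg1 with -0.66 ± 0.36, and among higher values to Batf3 with 0.63 ± 0.42, Cd14 with 0.38 ± 0.50 and Fcgr1, the high-affinity receptor for IgG, with 0.34 ± 0.41. Csf1r, Siglec1, Xcr1 and Mpeg1 were lower in all 4 day 3 libraries than in all 4 immunized ones, against 9.08% of all genes, and Fcgr1 was higher, against 8.3%. Within Cpa3Cre/+, where 0% of all genes passed and 0 members had an unadjusted p under 0.05 (4.31% of all genes), the values with the smallest p were Itgam at 0.44 ± 0.33 and Siglec1 at -1.08 ± 0.65. Within Cpa3+/+, with 0% of all genes as well and 0 members at an unadjusted p (4.93%), they were Batf3 at 1.06 ± 0.59 and Timd4 at -1.19 ± 0.65.

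Day 5 was the comparison with the most genes called, 334 (1.94%), yet 0 of the 30 members were among them in edgeR and 0 in DESeq2. At an unadjusted p under 0.05 there were 4 members, against 17.3% of all genes in either direction and 8.77% in the lower one, and all 4 were macrophage genes with lower values on day 5: C1qa with -0.85 ± 0.30 (adjusted p = 0.146 in edgeR), C1qc with -0.74 ± 0.27 (0.156), Siglec1 with -1.002 ± 0.44 (0.244) and C1qb with -0.61 ± 0.28 (0.265). The medians were -0.20 over the macrophage genes, -0.22 over the dendritic cell genes, -0.09 over the shared genes and 0.02 over all genes. Without the 3 libraries apart the macrophage median was -0.09 and the dendritic cell median -0.05.

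C1qa stood at 46.7, 32.3 and 33.0 CPM in day 5 Cpa3Cre/+ and 22.7 and 61.2 CPM in day 5 Cpa3+/+ libraries, against 53.4 and 68.7 CPM in immunized Cpa3Cre/+ and 80.8 and 69.2 CPM in immunized Cpa3+/+ libraries. C1qc stood at 31.0, 22.5 and 22.2 CPM in day 5 Cpa3Cre/+ and 17.2 and 41.1 CPM in day 5 Cpa3+/+ libraries, against 36.5 and 45.6 CPM in immunized Cpa3Cre/+ and 45.02 and 44.51 CPM in immunized Cpa3+/+ libraries. For both genes 4 of the 5 day 5 libraries were below all 4 immunized libraries, and Cpa3+/+ day 5 replicate 2 was not. Without that library the values were -1.31 for C1qa and -1.13 for C1qc, and without Cpa3+/+ day 5 replicate 1 they were -0.60 and -0.51. Siglec1 was the 1 member whose states did not overlap, with 5.43, 3.81 and 1.41 CPM in day 5 Cpa3Cre/+ and 3.94 and 5.95 CPM in day 5 Cpa3+/+ libraries, against 7.13 and 9.24 CPM in immunized Cpa3Cre/+ and 7.18 and 9.24 CPM in immunized Cpa3+/+ libraries. Of all genes, 3.71% were lower in that sense and 5.38% higher.

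Csf1r, Adgre1 and Cd68 had values nearer 0 than the 3 C1q genes, a difference that was not tested. Csf1r had -0.39 ± 0.35, Adgre1 -0.14 ± 0.43 and Cd68 -0.56 ± 0.30. The Csf1r level was 1.48 to 1.83 times that of C1qa in CPM in the 4 day 5 libraries other than Cpa3Cre/+ replicate 3, and 1.05 to 1.12 times in the 4 immunized libraries. In Cpa3Cre/+ day 5 replicate 3 it was 0.692 times, outside the range of both. In the naive, day 1 and day 3 libraries it ran from 0.585 times in Cpa3+/+ day 1 replicate 2 to 1.46 times in Cpa3+/+ day 1 replicate 3. Among higher values on day 5, the smallest p belonged to Itgam with 0.38 ± 0.23, Zbtb46 with 0.33 ± 0.43 and Clec9a with 0.14 ± 0.44.

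Within Cpa3Cre/+ mice, where 6 genes passed on day 5 (0.0348%), 0 were members, and 2 members had an unadjusted p under 0.05 (9.74% of all genes). The values with the smallest p were C1qc at -0.86 ± 0.37 and Itgam at 0.60 ± 0.33. Within Cpa3+/+ mice, with 0% of all genes and 0 members at an unadjusted p (9.29%), C1qa had -0.84 ± 0.44 and Zbtb46 0.78 ± 0.61. This C1qa value was -1.75 without Cpa3+/+ day 5 replicate 2 and -0.34 without replicate 1. With no filter on low counts, C1qa, C1qc and Siglec1 passed in the average of genotypes, at adjusted p of 0.00438, 0.0211 and 0.0304 in edgeR, where 906 of 32067 genes did.

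**Figure D5:**
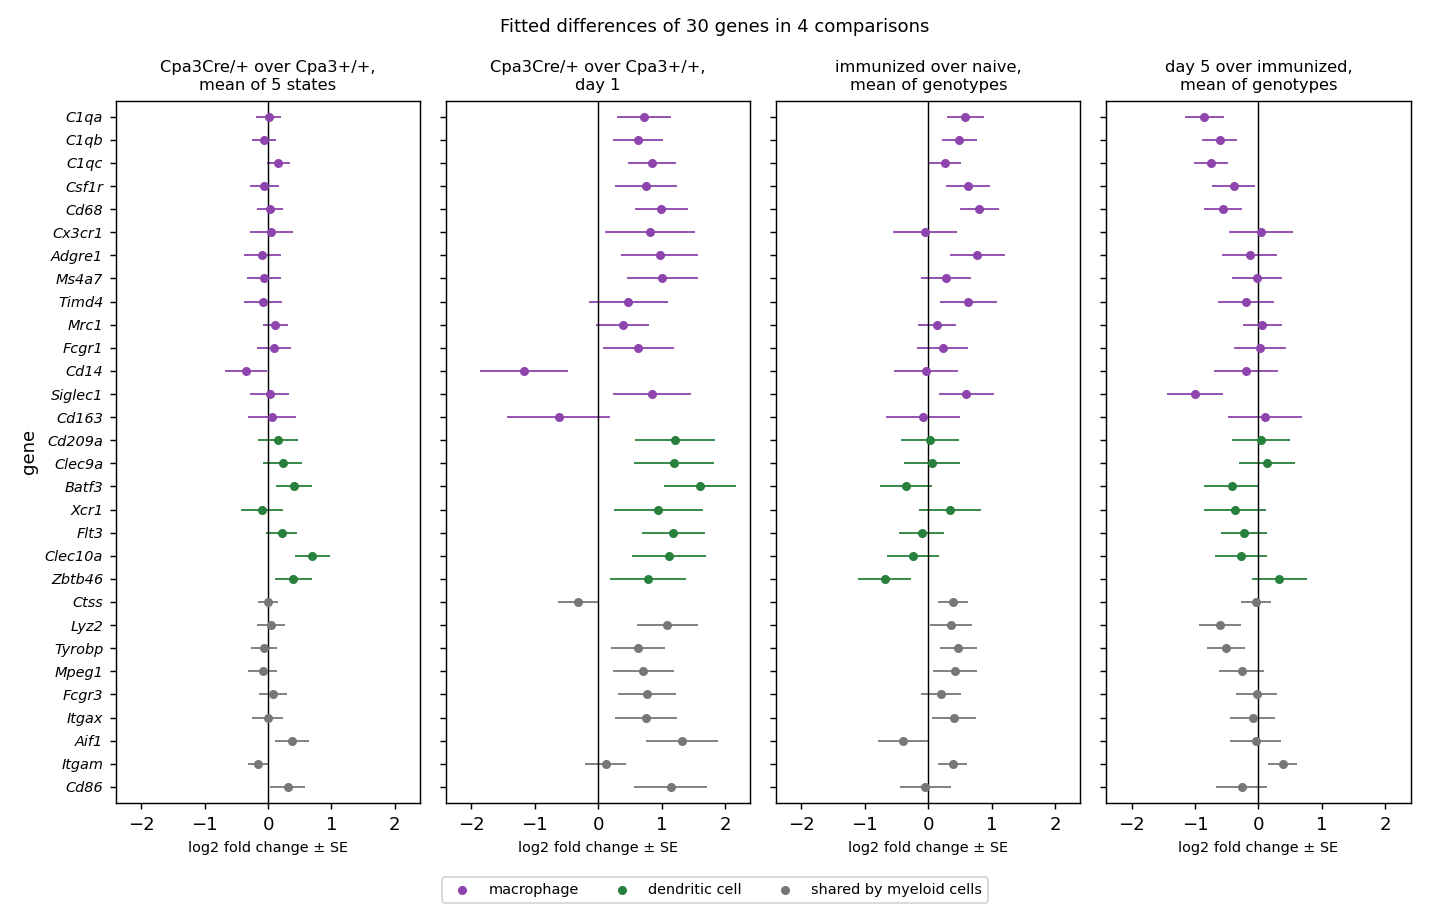
Fitted log2 fold changes (points) with their SE (bars) of the 30 genes in 4 comparisons, coloured by class, none of which passed the adjusted threshold in edgeR. The values lie above 0 for 27 of 30 genes in Cpa3Cre/+ over Cpa3+/+ on day 1, and the C1q genes and Siglec1 hold the lowest values in day 5 over immunized.

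The groups in which the members averaged highest and lowest followed from these values. For 21 of the 30 members, 11 macrophage, 5 dendritic cell and 5 shared genes, the highest group mean was that of Cpa3Cre/+ day 1. Csf1r averaged 115 ± 16.9 CPM there (SD, n = 2) and 40.5 ± 33.6 CPM in naive Cpa3Cre/+ mice (SD, n = 2), its lowest group. C1qa averaged 111 ± 42.9 CPM on day 1 in Cpa3Cre/+ (SD, n = 2) and 37.3 ± 8.08 CPM on day 5 (SD, n = 3), again its lowest group. The remaining highest groups were Cpa3+/+ immunized for Timd4, Xcr1, Lyz2 and Mpeg1, Cpa3+/+ day 1 for Cd163 and Cd14, and 1 group each for Zbtb46, Itgam and Ctss.

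Set directly against each other, the macrophage median log2 fold change was below that of the dendritic cell genes by genotype, with a difference (macrophage minus dendritic cell) of -0.21 averaged over states and -0.44 on day 1. It was above it in immunized over naive mice, with a difference of 0.49, and on day 1 over immunized, with 0.20, and close to it on day 5 over immunized, with 0.02. Within a group, libraries differed in the distance between the class medians of log2 CPM by a pooled SD of 0.342. With single libraries left out, the genotype difference ran from -0.33 to -0.17 averaged over states and from -0.70 to -0.16 on day 1. The difference ran from 0.37 to 0.70 in immunized over naive mice, from 0.09 to 0.42 on day 1 over immunized and from -0.35 to 0.13 on day 5. No test was made of these differences, since the members were chosen with results of these data known.

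Genes that make, recruit or steer these cells were read from lists of their own. Among 12 transcription factors of phagocytes, 1 passed: Spi1, which encodes PU.1, the factor that macrophages and B cells need to form, fell on day 5 of challenge with a log2 fold change of -1.22 ± 0.30 (adjusted p = 0.0469 in edgeR), where 1.94% of all genes passed. It stood at 4.47, 3.42 and 2.92 CPM in day 5 Cpa3Cre/+ and 2.09 and 5.88 CPM in day 5 Cpa3+/+ libraries, against 7.42 and 8.25 CPM in immunized Cpa3Cre/+ and 10.5 and 8.27 CPM in immunized Cpa3+/+ libraries. The states did not overlap, but the call was narrow: it was kept in 12 of 31 alternative fits and lost in 19, at adjusted p up to 0.217 without the 3 libraries with follicle transcripts. The whole list had a median of -0.46 in that comparison, with 1 of 12 above 0, against 52.2% of all genes.

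None of the 13 tested growth factors and chemokines of phagocytes, of 14 listed, passed in edgeR in any comparison. Their smallest p was that of Ccr6, the receptor for Ccl20, with -2.61 ± 0.82 on day 3 and -2.31 ± 0.75 on day 5 against immunized. Ccr6 ran from 0 to 2.62 CPM and was highest in Cpa3+/+ immunized replicate 1, the library with the most follicle transcripts. Csf1, the ligand of Csf1r, ran from 5.68 to 30.04 CPM, and Flt3l, the ligand of Flt3, from 3.67 to 22.3 CPM. Both were highest in the library labelled Cpa3Cre/+ naive replicate 1.

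Of the lists of related cells, 0 members passed in edgeR among the markers of monocytes (6 of 7 tested), plasmacytoid dendritic cells (6 of 6), mature migratory dendritic cells (7 of 7), the second conventional dendritic cell subset (4 of 4) and tissue-resident macrophages (8 of 10). Apoe, the lipid carrier abundant in resident macrophages and in other cells of the gut, came closest, with -1.28 ± 0.34 on day 5 against immunized (adjusted p = 0.0586). Klk1, of the plasmacytoid list, lay on the other side with 0.62 ± 0.18 (adjusted p = 0.0767 in edgeR). Ly6d of the same list had -1.09 ± 0.44, and Itgae of the second conventional subset -0.74 ± 0.24. Directions of the monocyte, plasmacytoid and second conventional lists as a whole are not given here. All 8 tested markers of resident macrophages and all 7 of mature dendritic cells lay below 0 in that comparison, where 52.2% of all genes lay above 0, with medians of -0.42 and -1.002. Il4i1, an amino acid oxidase of mature dendritic cells and B cells, had -1.93 ± 0.57 and Ccr7 -2.16 ± 0.78. The 11 B cell and follicle markers had a median of -2.58 there, with 0 of 11 above 0, and their part in these values was not tested.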

How the data were processed

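Whole-jejunum RNA was extracted with the PureLink RNA Mini kit and made into TruSeq stranded libraries, per the labels' protocols. Reads were aligned with STAR to GRCm38 (mm10) and counted by featureCounts (Subread 1.5.1), as named in the submitters' processing notes. The strand setting and annotation release are not given in the sources used here. The authors deposited raw read counts per Ensembl gene, with 5.48 to 19.34 M (mega) per library, and no normalization. From these counts, edgeR 4.0.16 (R 4.3.3) fitted robust quasi-likelihood models to all 23 libraries, with TMM scaling, filterByExpr, 10 group means and sex. P-values were adjusted by Benjamini-Hochberg over 17236 genes, with a threshold of 0.05. DESeq2 1.42.0 was an alternative, with other scaling, no filter, no sex term, a replicate block, female libraries only and each library left out. The fit was tested on simulated data with 200 changed genes. Read sharing and promoters were read with Python 3.11.15 and Biopython 1.88. Nothing in the labels says that replicates were separate animals, so p-values measure only the spread between these samples. No replicate pair was a duplicate, with a chi-square per degree of freedom of 13.6 or more. The members and lists were chosen with earlier results of these data known. Named in each comparison were called members, and otherwise those of at least 1 CPM with the smallest unadjusted p in each direction, 3 for averaged comparisons and 1 for the others. Other members given by name, such as Flt3, Timd4 and Adgre1, were chosen after their values were seen.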

Additional observations from a re-analysis of the deposited data

How the results depend on the processing

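Of the 22 comparisons, 16 had 0 members called by edgeR or DESeq2 under every alternative run, and 6 did not. Without the 3 libraries apart, chosen after seeing the data, 1 member was called between naive genotypes (Mpeg1, -1.65, where 7 of 17731 genes were called), 5 in immunized against naive mice (43 of 17731), and 1 within Cpa3Cre/+ (Mpeg1, 1.71, 17 of 17731). With no filter on low counts, 3 members were called on day 5 against immunized (906 of 32067 genes), 1 in the difference of responses on day 1 (Lyz2, 1.79, 202 of 32067) and 1 over the 3 days jointly (Lyz2, adjusted p = 0.0178, 728 of 32067). Leaving out single libraries gave 0 to 1 members in immunized against naive Cpa3Cre/+ mice, the 1 (Zbtb46) in a fit with 2013 of 18182 genes called. The macrophage minus dendritic cell median on day 5 against immunized was 0.02, but -0.352 in female libraries and -0.352 to 0.135 with single libraries left out. The causes were not tested.

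Values of single genes that changed sign without the 3 libraries apart were, by genotype, Aif1 averaged (-0.15), Zbtb46 naive (-0.93) and Cd14 on day 1 (0.24); in immunized against naive, Zbtb46 (0.25), Aif1 (0.50), Batf3 (0.10) and Zbtb46 within Cpa3Cre/+ (0.67); and on day 1 against immunized, Clec9a (0.10), Cd14 within Cpa3+/+ (-0.27) and the Cd14 difference of responses (0.88). In female libraries they were Csf1r naive (0.27), Batf3 immunized (-0.46) and the Batf3 difference on day 3 (0.28). Without the 3 libraries with follicle transcripts they were Batf3 in immunized against naive (0.0713), and C1qc (-0.0244) and Ctss within Cpa3Cre/+ (0.68) on day 1 against immunized.

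Single libraries left out turned the sign of 6 of 12 class medians. For dendritic cell genes these were genotype averaged (-0.11 to 0.34), immunized against naive (-0.32 to 0.38) and days 1 (-0.13 to 0.25), 3 (-0.31 to 0.0274) and 5 (-0.31 to 0.0135) against immunized, and for macrophage genes genotype averaged (-0.39 to 0.0934). They also turned the macrophage minus dendritic cell difference on day 3 (-0.23 to 0.17) and 17 of 64 values of single genes. By genotype these were Aif1 averaged (-0.093 to 0.51), Mpeg1 averaged (-0.48 to 0.00040), Zbtb46 naive (-0.88 to 1.65), Csf1r naive (-1.78 to 0.21), Batf3 immunized (-0.46 to 1.24) and Cd14 on day 1 (-1.61 to 0.37). In immunized against naive they were Zbtb46 (-1.04 to 0.24), Aif1 (-0.72 to 0.49), Batf3 (-0.88 to 0.0937) and Zbtb46 within Cpa3Cre/+ (-1.91 to 0.67). On day 1 against immunized they were Lyz2 (-0.54 to 0.23), Clec9a (-0.38 to 0.12), Ctss within Cpa3Cre/+ (-0.30 to 0.30) and Cd14 within Cpa3+/+ (-0.29 to 1.72). The others were Clec9a on day 5 (-0.0087 to 0.26), the Cd14 difference on day 1 (-1.12 to 0.92) and the Batf3 difference on day 3 (-1.48 to 0.22).

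Counts over all genes moved more. On day 5 against immunized 334 genes were called, but 906 without the filter, 957 in DESeq2, 82 in female libraries, 149 with the replicate block, 3294 without the 3 libraries apart, 34 without those with follicle transcripts and 28 to 1305 with single libraries left out. For genotype averaged, 5 were called, against 49 without the filter, 8 in DESeq2, 0 to 7 with single libraries left out, and 0 in each of female libraries, the replicate block, without the 3 libraries apart and without those with follicle transcripts. In immunized against naive mice 0 were called, against 578 without the filter, 35 in DESeq2, 979 in female libraries, 2 with the replicate block, 43 without the 3 libraries apart and 0 to 627 with single libraries left out. On day 5 within Cpa3Cre/+ 6 were called, against 341 without the filter, 177 in DESeq2, 1478 without the 3 libraries apart, 0 in female libraries, with the replicate block and without those with follicle transcripts, and 0 to 327 with single libraries left out. The replicate block called 0 of 30 members in each comparison and changed no member's call. Same-numbered libraries had deviations from their group means that correlated from -0.314 to 0.564 (median -0.0055), and 9 of 23 libraries matched their own number best. In a group of 2 libraries the deviations mirror each other, so this check could not decide whether the numbers pair samples. With 2 or 3 libraries a group, small differences were not detectable.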
